A study of Rattus norvegicus with 4 samples.

Results

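Genes that mark white adipocytes and genes that store or release fat were followed in blood vessels of rats, over 10 genes chosen by name: Adipoq, Retn, Plin1, Lpl, Fabp4, Cidec, Lipe, Pnpla2, Dgat2 and Pparg. Probes of the array were taken when their RefSeq accession belonged to a listed gene. This gave 10 probes for 9 of the 10 genes, out of 21107 named probes for 16580 genes on the array, and no probe was matched to Plin1. RNA came from vessels of male rats in 4 groups with 1 array each: transgenic rats with a PKCbeta deletion (KO) with angiotensin II (Ang II), KO control, Wistar rats (WT) with Ang II, and WT control. Treatment with Ang II, a peptide hormone that constricts vessels and raises blood pressure, lasted 24 h. The labels do not say which vessel was taken, the dose, the age of the rats, how the deletion was made, or whether RNA of several of the 4 rats per genotype was pooled.

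White adipocytes store triglyceride in a single large lipid droplet, and fat of this kind surrounds many arteries. The nuclear receptor Pparg drives their differentiation, Adipoq and Retn are hormones they secrete, and Fabp4 carries fatty acids inside the cell. Lpl frees fatty acids from circulating lipoproteins, Dgat2 makes the last bond of triglyceride, Plin1 and Cidec coat and enlarge the droplet, and Pnpla2 and Lipe break triglyceride down again. Several of these genes also work outside fat: Fabp4, Lpl and Pparg are known in macrophages, and Fabp4 in endothelium of small vessels.

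Promoter windows are shown for Adipoq and Retn, the secreted hormones that read lower on both KO arrays, and for Pparg. They come from RefSeq on build GRCr8 and run from 250 bases before the annotated start to 50 after it, printed in the direction of transcription. Windows were found for Adipoq, Retn, Plin1, Cidec, Pnpla2 and Pparg, which has 2. Capitals mark letters of 5 motifs searched on both strands: the direct repeat known for PPAR and its partner RXR, which is 2 copies of AGGTCA in the same direction with any 1 base between them, a single AGGTCA, which that repeat also holds, TTGCNNAA for C/EBP factors, TATAAA and CCAAT. Adipoq lies on the minus strand at chr11:91240120-91240419, Retn on the plus strand at chr12:6508524-6508823, and the window of Pparg shown here on the plus strand at chr4:150154522-150154821.
Adipoq: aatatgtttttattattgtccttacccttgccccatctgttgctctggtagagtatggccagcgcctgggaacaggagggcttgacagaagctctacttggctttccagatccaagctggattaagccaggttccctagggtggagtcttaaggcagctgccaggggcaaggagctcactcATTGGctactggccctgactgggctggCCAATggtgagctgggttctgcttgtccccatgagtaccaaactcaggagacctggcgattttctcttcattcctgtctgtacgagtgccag
Retn: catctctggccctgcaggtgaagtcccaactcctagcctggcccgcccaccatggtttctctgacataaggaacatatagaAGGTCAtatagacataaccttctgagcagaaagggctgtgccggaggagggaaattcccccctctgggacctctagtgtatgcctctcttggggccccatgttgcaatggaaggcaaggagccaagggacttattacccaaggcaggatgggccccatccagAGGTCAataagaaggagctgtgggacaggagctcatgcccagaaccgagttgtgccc
Pparg: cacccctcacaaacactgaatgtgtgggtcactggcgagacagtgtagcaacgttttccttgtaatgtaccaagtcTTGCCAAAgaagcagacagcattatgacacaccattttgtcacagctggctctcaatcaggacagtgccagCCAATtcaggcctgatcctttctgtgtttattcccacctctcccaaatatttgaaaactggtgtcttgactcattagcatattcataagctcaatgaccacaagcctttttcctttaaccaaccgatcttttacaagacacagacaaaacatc

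In the Adipoq window the capitals are a CCAAT on the minus strand starting 69 bases upstream and a CCAAT on the plus strand starting 42 bases upstream. Retn held 2 copies of AGGTCA, which start 169 and 7 bases upstream. The Pparg window shown held TTGCNNAA at 174 and CCAAT at 103 bases upstream. The other Pparg window held neither, and its only match was a TATAAA on the minus strand, after the start. The long direct repeat was in none of the 7 member windows and in 0.0538% of all 33469 promoter windows of this length. AGGTCA was in 16.2% of all windows, TTGCNNAA in 10.6%, TATAAA in 14.2% and CCAAT in 37.5%, so none of these letters was rare. A match in letters describes the window and is not a binding site.

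Many of the members' readings were dim in these vessels. Processed signal is the scanner's background-subtracted intensity, and a probe was counted as well above background where the scanner flagged over 50% of its spots so. Pnpla2, Dgat2 and Pparg were well above background on all 4 arrays. Adipoq and Retn were so on 3 arrays and Fabp4 on 2, while Lpl, Lipe and Cidec were so on none. Of 16 further genes of adipocyte identity and adipokines, 10 were well above background on all 4 arrays, among them Cfd, Cebpa and Slc2a4. The hormone gene Lep and the glycerol channel gene Aqp7 were below background on every array. The name of the list is thus borne out by some of its markers only. In bulk RNA, fewer adipocytes and less RNA per adipocyte cannot be told apart.

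The arrays differed in brightness along the genotypes. The 75th percentile of signal was 52.1 and 47.3 on KO Ang II and KO control, against 62.4 and 58.7 on WT Ang II and WT control. Probes well above background made up 41.4% and 40.6% of 45594 on the KO arrays, in the same order, against 43.4% and 43.5% on the WT arrays. Values were therefore taken as log2 of the processed signal minus log2 of that percentile, named the scaled log2 signal below, and the part of the brightness gap in results for dim probes was not tested. Prkcb, the gene of the deleted kinase, gave 1.89 on KO Ang II and 1.94 on KO control, against 18.0 on WT Ang II and 14.8 on WT control, with the KO values not well above background. A second, dimmer Prkcb probe read 1.73 on KO Ang II and 1.90 on KO control, against 12.2 on WT Ang II and 8.27 on WT control. Of these only WT Ang II was well above background. The sources used here do not place either probe inside or outside the deleted part.

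The secreted hormones come first. Adipoq had a processed signal of 12.5 on KO Ang II and 7.35 on KO control, against 34.9 on WT Ang II and 46.0 on WT control. Only the KO control value was not well above background. Its scaled log2 signals were -2.06, -2.69, -0.84 and -0.35 in that order, so both KO arrays lay below both WT arrays. The scanner's own error of the signal was 2.19, 2.10, 4.01 and 4.94 in the same order.

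Retn, which encodes resistin, was read by 1 probe with 10 replicate spots per array. Its mean signal over the unflagged spots was 14.1 ± 1.5 on KO Ang II (SD over 9 spots) and 7.58 ± 2.83 on KO control (SD over 10 spots), against 23.0 ± 0.843 on WT Ang II (SD over 8 spots) and 38.7 ± 4.58 on WT control (SD over 10 spots). The spots ran between 12.0 and 16.2, 3.97 and 11.6, 21.8 and 24.1, and 33.2 and 45.1 in that order, so before scaling the unflagged spots of no 2 arrays overlapped. On the scaled log2 scale the KO Ang II spots, at -2.12 to -1.69, overlapped the KO control spots, at -3.57 to -2.02, and the WT spots lay above both. The spots left out as outliers read 7.28 on KO Ang II, and 11.6 and 26.8 on WT Ang II. On KO control 3 of the 10 spots were well above background, and Retn was counted as dim there. These spots share 1 RNA sample per array and show how well a probe is read, not how rats differ.

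**Figure D1:**
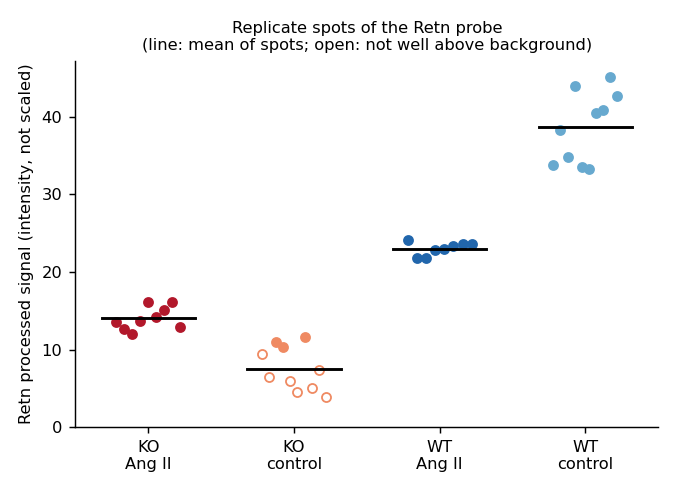
Processed signal (intensity, not scaled between arrays) of each unflagged replicate spot of the Retn probe on the 4 arrays, with the mean of the spots as a line and open circles for spots not well above background. The KO control spots lie lowest, between 3.97 and 11.6, and the WT control spots highest, between 33.2 and 45.1.

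Fabp4 split the arrays by genotype. Its signal was 2.43 on KO Ang II and 2.65 on KO control, neither well above background, against 16.8 on WT Ang II and 24.5 on WT control, both well above. On the scaled log2 scale these were -4.42, -4.16, -1.89 and -1.26. The order of the 2 KO arrays carries no meaning, since both are below background.

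Pparg, the regulator, was measured on every array. Its signal was 50.7 on KO Ang II and 31.8 on KO control, against 65.9 on WT Ang II and 71.4 on WT control, with scaled log2 signals of -0.04, -0.57, 0.08 and 0.28. KO control was the low array. KO Ang II and WT Ang II differed by 0.12 on the log2 scale, which is inside the technical error of 0.22 that the scanner's errors give for that ratio.

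The enzymes of triglyceride showed no split by genotype. Dgat2 had 54.5 on KO Ang II and 54.4 on KO control, against 84.6 on WT Ang II and 59.8 on WT control, which is 0.06, 0.20, 0.44 and 0.03 as scaled log2 signal. Pnpla2, which takes the first fatty acid off triglyceride, had 208 and 194 on the KO arrays, in the same order, against 278 and 193 on the WT arrays, and its scaled log2 signals ran between 1.71 (WT control) and 2.16 (WT Ang II array). On the scaled scale the KO arrays of both enzymes lay between the 2 WT arrays, and WT Ang II was the high array.

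Lpl, Lipe and Cidec stayed below background on all 4 arrays. Lpl read 3.79 on KO Ang II and 2.56 on KO control, against 5.36 on WT Ang II and 7.30 on WT control. The brighter of the 2 Lipe probes read 4.83 and 6.34 on the KO arrays in that order, against 2.74 and 7.73 on the WT arrays, and the other probe ran between 1.63 and 2.16. Cidec ran between 1.68 and 1.78. No ratio is given for these 3 genes, because a dim signal gives a bound and not a level.

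**Figure D2:**
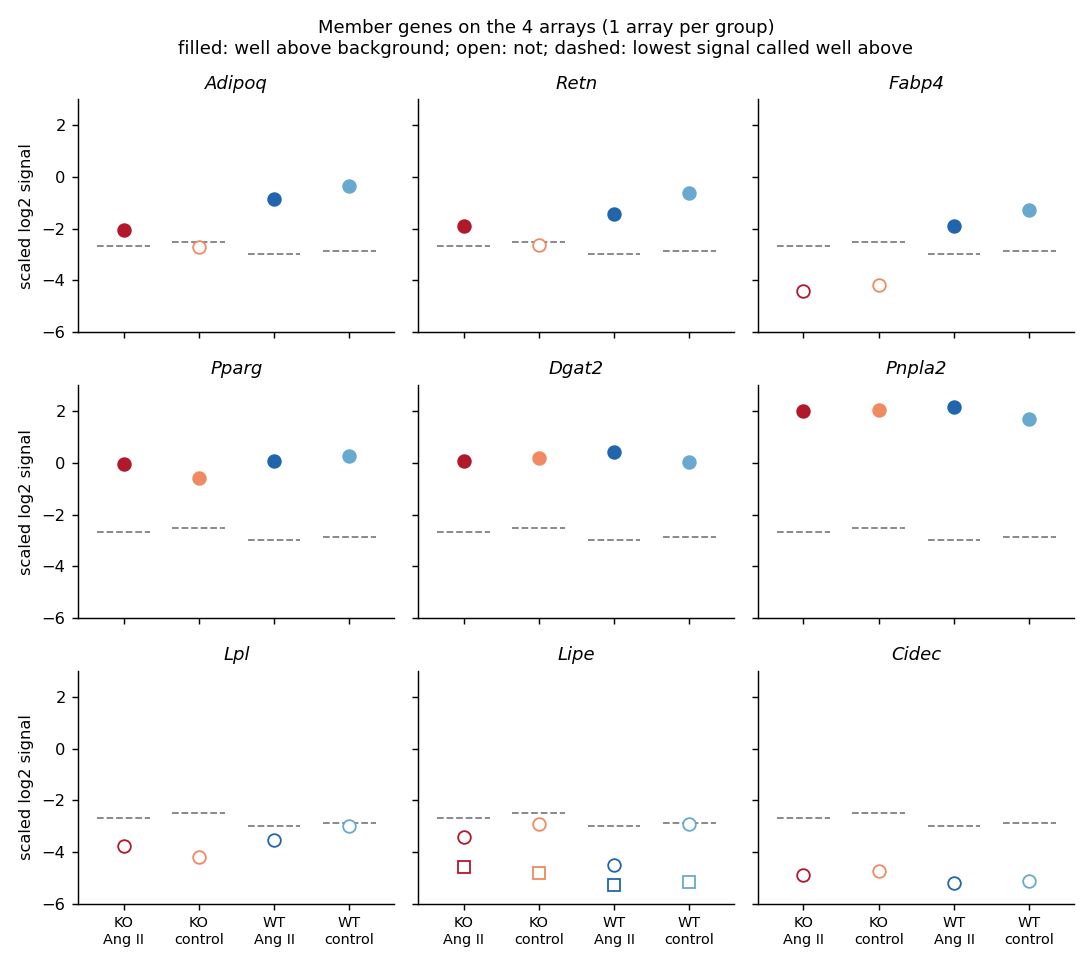
Scaled log2 signal of each matched probe of 9 genes on the 4 arrays, with filled symbols where the probe was well above background, open symbols where it was not, and dashed lines at the lowest signal called well above background on that array; squares are the second Lipe probe. Adipoq, Retn and Fabp4 are lower on both KO arrays, and Dgat2 and Pnpla2 are not; heights of different genes are not comparable, since each probe binds differently.

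Control vessels of both genotypes were compared first, which sets KO against WT without Ang II. With 1 array a side, the deletion cannot be told apart here from the animals, the slide position or the brightness of the arrays. Adipoq, Retn and Fabp4 were all lower in KO. Where a gene was dim on 1 of the arrays, its dim side was raised to the lowest signal of any probe called well above background there, which makes the fold a bound. Adipoq was at least 4.46-fold lower, Retn at least 3.75-fold lower and Fabp4 at least 2.37-fold lower. These bounds hold at that lowest signal, which was 8.31 on KO control, and carry no error. Adipoq read 7.35 there with a scanner error of 2.10, which reaches past 8.31. Some dim probes also read above it, such as Cd36 at 8.52 on KO control, so the bounds here and below are not strict limits. Pparg was 1.81-fold lower with both sides measured, at -0.85 on the log2 scale with a technical error of 0.23. Dgat2 and Pnpla2 stood at 0.17 and 0.33, with technical errors of 0.22 and 0.20.

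In that comparison 3 of the 6 members compared were at least 2-fold lower and none as much higher. Among 9447 genes 3.31% were lower and 2.4% higher by 2-fold or more. Those 3 members were Adipoq, Retn and Fabp4, each a bound, since each was dim on KO control. They entered the comparison only because they were high on WT control, so they could read lower or drop out, but not higher. The count, and the median given next, carry that limit. The median log2 ratio of the 6, with bounds taken as they stand, was -1.05 beside 0.01 over all genes compared. With 1 array per group there is no test of this difference. Background correction by normexp, which adds an offset of 50 to every signal and so compresses signals of this size, left Adipoq at -0.51, Retn at -0.41 and Fabp4 at -0.33 on the log2 scale, none past 2-fold.

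The next comparison set KO against WT with Ang II. Adipoq was 2.33-fold lower in KO, measured on both arrays, at -1.22 with a technical error of 0.30. Retn was 1.37-fold lower at -0.45 with a technical error of 0.10, and Fabp4 was at least 1.71-fold lower. The error of Retn is that of a mean over 9 spots on KO Ang II and 8 on WT Ang II. Every other member had 1 spot per probe on each array, so its error is not on the same footing. Dgat2, Pnpla2 and Pparg stood at -0.37, -0.16 and -0.12, with technical errors of 0.21, 0.20 and 0.22. Of the 6 genes, 1 was at least 2-fold lower and none higher, while among 9570 genes 4.42% were lower and 1.84% higher by that much. Their median was -0.41 beside -0.04 over all genes, and with normexp Adipoq stood at -0.22.

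**Figure D3:**
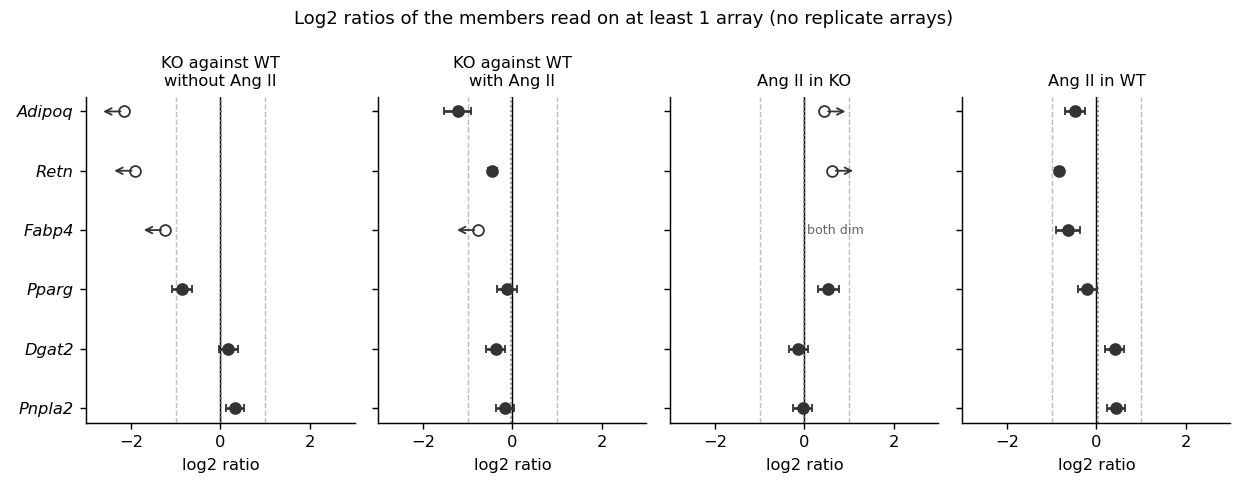
Log2 ratio (first-named group over second) of the 6 genes read above background on at least 1 array, in 4 comparisons of 1 array with 1 array; bars are the technical error from the scanner, open circles with arrows are bounds, dashed lines mark 2-fold and the dotted line is the median of all genes. Bounds for Adipoq, Retn and Fabp4 lie past 2-fold lower only for KO against WT without Ang II, where they are -2.16, -1.91 and -1.25.

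The treatment was then followed within each genotype. In KO vessels, none of the 3 members measured on both arrays reached 2-fold with Ang II, a size that 0.184% of 9232 genes reached upward and 0.78% downward. With Ang II the bound for Retn was at least 1.54-fold higher and that for Adipoq at least 1.36-fold higher, while Pparg was 1.45-fold higher at 0.53 with a technical error of 0.23. Dgat2 and Pnpla2 stood at -0.14 and -0.04, inside their technical errors of 0.22 and 0.20. Fabp4 was dim on both arrays and has no ratio. The median of the 5 members compared was 0.45 beside -0.0048 over all genes. The bounds of Retn and Adipoq do not say whether either reached 2-fold, and with normexp Retn stood at 0.057 and Adipoq had no ratio.

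In WT vessels, no member reached 2-fold either, a size that 1.43% of 9793 genes reached upward and 0.888% downward. Retn, Fabp4 and Adipoq were lower with Ang II, Retn by 1.79-fold and Fabp4 by 1.55-fold, at -0.84, -0.63 and -0.49 on the log2 scale with technical errors of 0.08, 0.27 and 0.23. The smaller error of Retn is again that of a mean over replicate spots. Pparg stood at -0.20, within its technical error of 0.21. Pnpla2 and Dgat2 were 1.36-fold and 1.33-fold higher, at 0.44 and 0.41 with technical errors of 0.20 and 0.21. The median of the 6 members was -0.35 beside 0.04 over all genes. With normexp Retn, Fabp4 and Adipoq stood at -0.28, -0.19 and -0.31. The 4 comparisons share arrays: the low values of KO control enter both the first comparison and the response of KO, and the high WT control values of Adipoq, Retn and Fabp4 enter both the first comparison and the response of WT.

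The difference of the responses, KO minus WT, could be formed for the 3 members above background on all arrays. It was 0.74 for Pparg, -0.48 for Pnpla2 and -0.55 for Dgat2, with technical errors of 0.31, 0.29 and 0.30. None reached 2-fold, which 1.27% of 8588 genes did upward and 2.85% downward, and the median of the 3 was -0.48 beside -0.05 over all genes. Adipoq, Retn and Fabp4 have no such value because they were dim on 1 or both KO arrays.

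An additive fit of genotype and treatment over all 4 arrays gave the tests the design allows. It used limma on the 9379 genes detected above background by 2 or more arrays, takes dim values as read, and has 1 residual degree of freedom, which holds the difference of responses. Averaged over treatments, Adipoq stood at -1.78 (SE 0.31) and Retn at -1.24 (SE 0.42) for KO minus WT, each lower on 2 of 2 KO arrays. Adipoq and Retn met the filter of 2 arrays through the WT arrays, where they are high. On the KO side they were above background on KO Ang II and not on KO control. Their fitted differences are therefore given as descriptions and not as tests. Both differences take a KO control signal that was not well above background as a level, and with normexp they were -0.36 and -0.24. Fabp4 entered this fit only through its WT arrays, where it is high, so its fitted difference is no test and is left out.

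Pparg had a genotype difference of -0.49 with an interval between -1.13 and 0.16 (limma, adjusted p = 0.273). Dgat2 stood at -0.10 with an interval between -0.65 and 0.45, and Pnpla2 at 0.08 with one between -0.44 and 0.61. None of these 3 members passed an adjusted p of 0.05 by limma, and nor did any gene, so 0% of 9379 were called in each direction. Plin1, Lpl, Cidec and Lipe were not in the fit, the first for want of a probe and the others because they were dim. At an unadjusted limma p under 0.05 there were 2456 genes. For Ang II the smallest adjusted p of any gene was 1, with 0% called, 359 genes under an unadjusted 0.05 and none of them a member.

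Other genes of the adipocyte and of lipid storage were read from lists. Among 16 further genes of adipocyte identity and adipokines, 11 were detected on 1 or more arrays, and Lep, Aqp7, Npr3, Thrsp and Pck1 were not. None was at least 2-fold lower or higher in KO under either treatment, and their medians for KO over WT were -0.21 without Ang II and -0.12 with it. Cfd, the secreted protease adipsin, had scaled log2 signals of 1.27 and 1.20 on KO Ang II and KO control, against 1.24 and 1.78 on WT Ang II and WT control. Rbp4, the retinol carrier, had 1.13 and 0.94 on the KO arrays, against 1.01 and 1.83 on the WT arrays in the same order, and its response to Ang II stood at 0.20 in KO and -0.82 in WT. In both genes WT control was the high array and the other arrays lay close together.

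Genes of lipid uptake held several low values in KO. Of 13 genes compared without Ang II, 2 were at least 2-fold lower, and of 13 compared with it, 3 were, with no gene 2-fold higher in either. Over all genes compared, 3.31% of 9447 were as much lower and 2.4% higher without Ang II. With it 4.42% of 9570 were lower and 1.84% higher. Cd36, the fatty acid translocase, had 10.9 on KO Ang II and 8.52 on KO control, against 24.3 on WT Ang II and 27.5 on WT control, and was at least 2.60-fold lower without Ang II and 1.87-fold lower with it. Vldlr, a lipoprotein receptor that helps lipoprotein lipase, was 2.41-fold lower without Ang II and 1.93-fold lower with it. Angptl4, a secreted inhibitor of lipoprotein lipase, was 1.58-fold lower without and 2.16-fold lower with it. The acyl-CoA synthetases Acsl3 and Acsl4 were 2.31-fold and 2.19-fold lower with Ang II. Gpihbp1, which anchors lipoprotein lipase on capillaries, was below background on all arrays, as Lpl itself was. The list medians for KO over WT were -0.02 and -0.27 without and with Ang II, so these genes were the low tail of a list whose middle lay near 0 without Ang II.

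Regulators of lipolysis stood on both sides. G0s2, a protein inhibitor of the lipase that Pnpla2 encodes, had scaled log2 signals of 2.91 and 2.03 on KO Ang II and KO control, against 3.40 and 4.18 on WT Ang II and WT control. Without Ang II it was 4.45-fold lower in KO, with Ang II it stood at -0.48 on the log2 scale, and its difference of responses was 1.67. As with Retn, KO control was the lowest array and WT control the highest. Prkar2b, a regulatory subunit of protein kinase A, was 1.36-fold lower in KO control and 2.57-fold lower in KO with Ang II. Ces1d, a carboxylesterase, went the other way, at 3.01-fold higher in KO control and 2.26-fold higher in KO with Ang II. Of the 9 genes of this list compared, 1 was at least 2-fold higher and 2 lower under each treatment, not all of them named here. Over all genes 2.4% were as much higher and 3.31% lower without Ang II, and 1.84% and 4.42% with it.

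Coat proteins and synthesis enzymes held few genes past 2-fold. Plin2, the coat protein of droplets in most cells, had 2.14 and 2.34 on KO Ang II and KO control, against 3.07 and 2.80 on WT Ang II and WT control on the scaled log2 scale. Cidea, a relative of Cidec, was 1.72-fold lower in KO control and 2.18-fold lower in KO with Ang II, and was the only one of 6 droplet genes past 2-fold in either comparison. Among triglyceride synthesis genes Agpat5 was 2.09-fold lower without Ang II, alone among 11 compared, and none of 12 was past 2-fold with it. Over all genes 3.31% were at least 2-fold lower and 2.4% higher in KO without Ang II, and 4.42% and 1.84% with it. No fatty acid synthesis gene and no receptor partner or coregulator of Pparg was past 2-fold in any of the 4 comparisons. For fatty acid synthesis the KO over WT medians were -0.13 and 0.10 without and with Ang II, for the receptor partners 0.30 and 0.29, for the droplet list -0.23 and -0.38, for triglyceride synthesis 0.19 and -0.17 and for lipolysis 0.09 and 0.03. With Ang II no gene of the 7 related lists was past 2-fold in KO or in WT, with list medians between -0.11 and 0.06 in KO and between -0.11 and 0.21 in WT. By limma's additive fit no gene of these lists passed an adjusted p of 0.05 for genotype or Ang II.

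**Figure D4:**
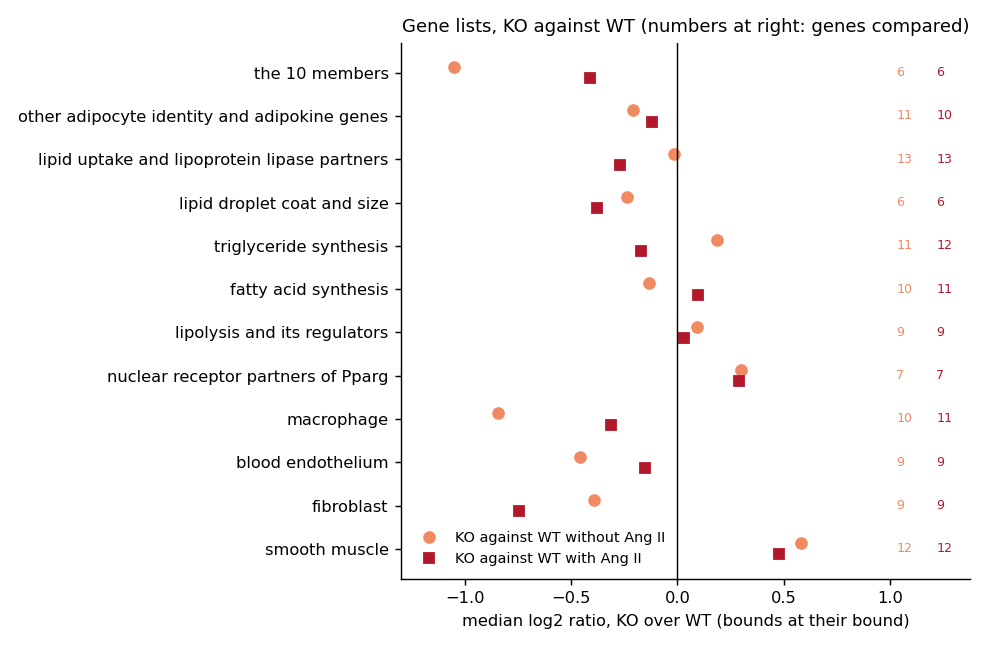
Median log2 ratio of KO over WT for 12 gene lists without Ang II (circles) and with it (squares), with the number of genes compared at the right. The median of the 10 members, 6 of them compared, lies lowest without Ang II at -1.05, the macrophage list is at -0.85 there, and smooth muscle lies highest at 0.58. Of those 6 members only 3 were measured on both arrays without Ang II, and the others are bounds that could only read lower.

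Markers of other cells differed along genotype as well. Macrophage markers were well above background for 10 genes on KO Ang II and 10 on KO control, against 10 on WT Ang II and 12 on WT control, of 14 with a probe, and Mrc1 and Marco were below background throughout. Their summed signal, in units of each array's 75th percentile, was 42.2 and 35.1 on the KO arrays, against 72.4 and 64.8 on the WT arrays in the same order. In KO against WT 10 of 10 macrophage genes compared lay below 0 without Ang II and 10 of 11 with it, with medians of -0.85 and -0.31. With Ang II their median was 0.15 in KO, with 10 of 11 genes above 0, and -0.13 in WT. Fabp4, Lpl and Pparg are known in macrophages too, and the part of these cells in the members' values was not tested.

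Endothelial markers, where Fabp4 and Cd36 are also known, summed to 33.2 and 31.0 on KO Ang II and KO control, against 36.2 and 39.3 on WT Ang II and WT control. Tie1 and Emcn were below background on all arrays, and 9 genes of 11 with a probe were above it on at least 1. The KO over WT medians were -0.46 and -0.15 without and with Ang II. Fibroblast markers, all 9 with a probe above background on every array, summed to 516 and 584 on the KO arrays, against 863 and 835 on the WT arrays, with medians of -0.39 and -0.75. Of the 9, 5 were below 0 and 4 above without Ang II, and 8 were below 0 with it. The bright collagen genes Col1a1 and Col3a1 were 2.87-fold and 2.72-fold lower in KO control, while Fbln1 was 1.84-fold higher. Smooth muscle markers, all 12 above background on every array, had sums that ran the other way. These were 264 and 251 on the KO arrays, against 180 and 192 on the WT arrays, with medians of 0.58 and 0.48. Of the 12, 11 were above 0 and 1 below under each treatment. The gene below 0 was Des without Ang II, at -1.11, and Lmod1 with it, at -0.26. The share of each cell type behind these sums, and its part in the values of Adipoq and Retn, was not tested.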

How the data were processed

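Rat vessel RNA was labelled with Cy3 for 1-colour Agilent arrays, per the labels' protocols. The authors deposited scanner output with intensity values (processed signal, its error, median spot and background signals) and 0 or 1 flags from Agilent Feature Extraction, version 10.7.1.1 per the file headers and 12.1.1.1 per the submitters' processing notes. The log2 values of the authors' own deposited table equal log2 of the median processed signal of a probe's spots plus a constant, within 0.01 for 100% of probes. Each column's 75th percentile is 5.62, and its median is 2.11 for KO Ang II, 2.27 for KO control, 2.22 for WT Ang II and 2.29 for WT control. Scale, centring and direction are thus known, and the software is not.

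Outlier spots (301 to 372 of 58717 per array) were left out, spots of a probe averaged and 4 probes without a usable spot dropped; no spot was saturated. Values are log2 processed signal minus log2 of the array's 75th percentile. Unversioned accessions were matched to RefSeq genes of GRCr8, used for names. A gene took its brightest probe among those well above background on at least 1 array. Bounds used the dimmest probe called well above background on an array, a signal of 7.92 to 8.31, unless the gene itself was brighter. With 1 array a group the call rule was 2-fold, and the number of arrays limits the precision. The groups lie at different positions of 1 slide, so position and group cannot be told apart.

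The additive fit used limma 3.58.1 in R 4.3.3 with Benjamini-Hochberg adjustment (1 residual and 3.14 prior degrees of freedom) and was tested on simulated data. Other steps used Python 3.11.15, numpy 2.4.6 and pandas 2.3.3. Named genes were the 10 members, Prkcb, genes of 7 related lists at least 2-fold in a comparison (at most 5 a list) or below background throughout, and the 5 genes nearest the members' profile. Cfd, Cebpa, Slc2a4, Plin2 and, of 10 cell type lists, the genes named were chosen after their values were seen. The values of 1 gene of the lipolysis list are not reported here. Members and lists were chosen with earlier results of these data known. Alternatives were normexp, the percentile over probes detected on all arrays, quantile normalization, the mean of a gene's probes, outlier spots kept, the authors' table and, for limma, the filter on dim genes. Normexp used median pixel signals, since the files hold no mean signal. Counting a probe as well above background where any of its spots was, was added after seeing the data.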

Additional observations from a re-analysis of the deposited data

Results flagged for a closer look

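With Ang II, 5 members stood on opposite sides of 0 in KO and in WT, and the difference was not tested, since each response rests on 1 array a side. Over all genes compared, 51.1% of 9232 in KO and 44.9% of 9793 in WT lay below 0 with Ang II. Opposite sides are thus open to a large part of all genes, and the share of genes on opposite sides was not counted. Retn stood at 0.62 in KO, as a bound, and at -0.84 in WT, on the log2 scale. Adipoq stood at 0.45 in KO, as a bound, and at -0.49 in WT. Pparg stood at 0.53 in KO and -0.20 in WT. Pnpla2 and Dgat2 ran the other way, with -0.040 and -0.14 in KO and 0.44 and 0.41 in WT. With normexp Retn stood at 0.057 in KO and -0.28 in WT, and Adipoq had no value in KO, so its opposite signs hold with the processed signal and could not be checked with normexp. The KO values of Pnpla2 and Dgat2 and the WT value of Pparg lie within the technical error of their ratios.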

How the results depend on the processing

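No paired analysis was possible because every group holds 1 array, all numbered replicate 1. Of the summary values recomputed under alternatives, 114 lay near the main value (counts within 1.5 times, medians within the median technical error of the members' ratios). Part of that closeness was fixed in advance. Each member compared has 1 probe, so the mean of probes changes nothing, and the authors' table holds the same processed signal plus a constant. Many of the values are also counts of 0. The values that were not near, and the other normexp medians, follow. With normexp the members at least 2-fold lower in KO numbered 0 without Ang II and 0 with it, against 3 and 1, and the medians were -0.37 and -0.18, against -1.05 and -0.41. The median for Ang II in KO was 0.0053, against 0.45, that for Ang II in WT -0.19, against -0.35, and that for the difference of responses -0.27, against -0.48. Its offset of 50 compresses such low signals by construction and lowers the counts over all genes too, to 89 at least 2-fold lower and 25 higher in KO without Ang II, against 313 and 227, and to 137 and 18 with it, against 423 and 176. For Ang II these counts were 4 lower and 0 higher in KO, against 72 and 17, and 8 and 29 in WT, against 87 and 140, and for the difference of responses 50 and 20, against 245 and 109. Counting a probe as well above background where any of its spots was lowers the floor for bounds to signals of 3.39 to 5.27. It gave 2 members at least 2-fold lower in KO with Ang II, against 1, where Fabp4 stood at -2.05, and a median of -1.45 without Ang II. In the difference of responses it gave 1 member at least 2-fold higher, Retn at 1.59, and a median of 0.13, against -0.48, where 112 of 8615 genes were as much higher and 247 as much lower. Over all genes it gave 497 lower and 281 higher in KO without Ang II, 636 lower and 220 higher with it, and for Ang II 149 lower and 89 higher in KO and 159 and 233 in WT. Over 8 alternatives the additive genotype difference of Adipoq lay between -1.80 and -0.36 and that of Retn between -1.35 and -0.24, with the sizes nearest 0 under normexp. With the filter set to genes above background on all 4 arrays, Adipoq and Retn were not in the fit. Signals near background limit Adipoq, Retn and Fabp4.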

Other observations

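Brown and precursor fat cells were read from 2 further lists. Of 6 brown adipocyte genes with a probe, Cox8b and Dio2 were above background on at least 1 array, and Ucp1, the uncoupling protein, on none. Among 8 precursor genes with a probe, Dlk1, the preadipocyte factor, had scaled log2 signals of -1.99 on KO Ang II and 0.14 on KO control, against -0.99 on WT Ang II and -0.24 on WT control. Sox9, a factor of progenitor cells, had -1.40 and -0.57 on the KO arrays, against -1.42 and -2.16 on the WT arrays in the same order. Both were highest on KO control, the array on which Retn and Pparg read lowest. Other precursor genes did not follow them. Pdgfrb was highest on WT control, at 4.57 against 4.27 on KO control, and Cd34 stood at -1.73 on KO Ang II and -1.75 on KO control. Wnt10b and Klf2 were above background on WT control only, and Gata2 and Gata3 on no array.

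The KO over WT medians without and with Ang II were 0.14 and 0.42 for skeletal muscle markers, 0.07 and 0.14 for 2 lymphocyte markers, and 0.12 and -0.18 for red cell genes. Of 5 mesothelial markers with a probe, 2 were above background on at least 1 array and none on all 4. The genes nearest to the median profile of Pparg, Dgat2 and Pnpla2 over the 4 arrays, among 8585 others above background on all of them, were Idh3a, Zdhhc3, Ier5, Trappc4 and Tmsb4x, at Euclidean distances of 0.04 to 0.05 on the log2 scale. That profile was 0.02 on both KO arrays, 0.18 on WT Ang II and -0.16 on WT control, relative to the mean of the arrays. The median was taken on each array separately, and Pparg itself did not have this profile. Pparg was highest on WT control and lowest on KO control, so these genes are near Dgat2 and Pnpla2 rather than Pparg.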
